A study of Homo sapiens with 2 samples.

Results

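The genes described here are 46 genes of mitosis, measured in the established human oral cancer line SAS. They encode the kinases and cyclins that drive entry into mitosis, the spindle checkpoint, the chromosomal passenger complex, the mitotic kinesins, centromere and spindle proteins, and the machinery of anaphase and cytokinesis. They were taken by gene name from a table of 24124 genes, in which each of the 46 was found. The ASC group was 1 sample of SAS cells carrying the lentiviral vector pLKO.AS2 with ASC, and the control group was 1 sample with pLKO.AS2 alone. ASC is the inflammasome adaptor protein, encoded by PYCARD. Cells of both groups were kept in DMEM with serum, G418 and puromycin, and the labels do not say whether a line was 1 clone or a pool. Levels are in RPKM, that is reads scaled by transcript length and sequencing depth, summed over the transcripts of a gene. Log2 ratios are those of RPKM + 1 in ASC cells over control cells, and they come out too small for genes of low level.

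Mitosis is ordered by a few kinases. Cyclin B with CDK1 starts it, Aurora and Polo-like kinases build the spindle, and the spindle checkpoint holds back the anaphase-promoting complex until each chromosome is attached to microtubules. Kinesins are motor proteins that slide, shorten or carry cargo along those microtubules. Most genes of this kind are transcribed late in the cell cycle, so in a culture growing without synchrony their mRNA level is also a common measure of how many cells are in G2 and mitosis. In bulk RNA, fewer cells of a phase and less RNA per cell cannot be told apart.

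The ASC library held 31426491 listed reads and the control library 31289581, and 12471 genes reached 1 RPKM in either library and were compared. PYCARD stood at 267 RPKM in ASC cells against 1.36 in control cells, which is the direction of the labels. All 8 epithelial marker genes looked at were present, summing to 3621 RPKM in ASC cells and 2860 in control cells. Their signs differed, with 6 above 0 and 2 below 0. KRT8 and KRT18 had the highest levels and the highest log2 ratios, 0.57 and 0.49. EPCAM was level, and KRT5 and TP63 were lower in the ASC library, with log2 ratios of -0.44 and -0.24. The 4 fibroblast markers in the table summed to 0.668 RPKM in ASC cells and 0.273 in control cells, and the 2 leukocyte markers to 0.446 RPKM in ASC cells and 0.322 in control cells. The 3 endothelial markers summed to 2.84 RPKM in ASC cells and 2.13 in control cells. Of these CDH5 stood at 2.23 RPKM in ASC cells against 1.23 in control cells, and VWF at 0.584 RPKM in ASC cells against 0.840 in control cells. The part of these markers in the results was not tested. There was no second library of either group. No difference below could therefore be set against a spread between replicates, no test between the groups was possible, and the intervals given cover counting error only. An interval given with a log2 ratio is that of the ratio of reads scaled to depth. It is not an interval of the RPKM + 1 ratio beside which it may stand.

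A sequence feature that the choice of genes did not use is shown first, because it is shared by genes on both sides of 0. Promoters of late cell cycle genes are known for the CHR, an element bound by the MuvB protein complexes and searched here as TTTGAA, and for CCAAT boxes, bound by NF-Y and searched as CCAAT, both on either strand. RefSeq promoter windows (build GRCh38.p14) run from 250 bases before to 50 bases after a start site and were found for 38 of the 46 genes. The 8 without a window were AURKA, UBE2C, TPX2, BIRC5, BUB3, RACGAP1, FOXM1 and TTK. They range from AURKA, the highest log2 ratio of the 46 (0.54), to TTK (-0.09), and all but TTK were above 0. The comparisons by motif leave them out. A CHR match was in a window of 27 of the 38 (71.1%), against 18.2% of the 27305 genes with a window and 13.3% of those among the compared genes. A CCAAT match was in 33 (86.8%), against 39.7% of all genes with a window, and both were in 24 (63.2%), against 7.26%. Among 34 genes of a kinetochore list a CHR match was in 41.2%, a CCAAT match in 64.7% and both in 23.5%. Among 19 DNA replication genes a CHR match was in 5.26%, a CCAAT match in 68.4% and both in 5.26%. A match is a string of letters and was not tested as a binding site. The CHR and a CCAAT box lay together in the 130 bases before the start in 14 genes with a single window. Of these 14, the 3 with the highest and the 3 with the lowest log2 ratio are printed, 5′ to 3′, up to the base before the start site, with both motifs in capitals.
KIF23: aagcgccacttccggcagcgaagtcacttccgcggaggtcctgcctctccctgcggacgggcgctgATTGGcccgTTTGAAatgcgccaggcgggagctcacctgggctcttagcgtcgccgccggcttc
KIF4A: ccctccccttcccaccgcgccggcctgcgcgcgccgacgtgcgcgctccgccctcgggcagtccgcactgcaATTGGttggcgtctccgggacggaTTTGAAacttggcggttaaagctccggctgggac
CDCA8: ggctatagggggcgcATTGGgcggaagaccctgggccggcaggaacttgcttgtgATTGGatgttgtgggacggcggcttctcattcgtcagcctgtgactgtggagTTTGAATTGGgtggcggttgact
INCENP: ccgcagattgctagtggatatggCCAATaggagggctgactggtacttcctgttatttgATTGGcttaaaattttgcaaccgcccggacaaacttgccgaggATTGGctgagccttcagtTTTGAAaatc
ESPL1: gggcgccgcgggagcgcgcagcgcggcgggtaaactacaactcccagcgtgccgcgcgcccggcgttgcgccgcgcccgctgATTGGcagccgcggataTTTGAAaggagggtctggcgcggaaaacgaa
KIF18A: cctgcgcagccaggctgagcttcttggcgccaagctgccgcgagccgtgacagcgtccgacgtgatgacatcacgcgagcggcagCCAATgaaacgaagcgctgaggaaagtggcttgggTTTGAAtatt

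These stretches lie at chr15:69414219-69414348 on the plus strand for KIF23, chrX:70289974-70290103 on the plus strand for KIF4A and chr1:37692386-37692515 on the plus strand for CDCA8. Those of INCENP, ESPL1 and KIF18A lie at chr11:62123881-62124010 on the plus strand, chr12:53268169-53268298 on the plus strand and chr11:28108157-28108286 on the minus strand. In CDCA8 one CCAAT match, read on the other strand as ATTGG, shares a base with the CHR. The same arrangement of a CCAAT box followed by a CHR closer to the start can be read in KIF23, with a log2 ratio of 0.42, and in KIF18A, with -0.24. The 27 genes with a CHR match had a median log2 ratio of 0.10 and ran from -0.67 to 0.42, and the 11 without one had a median of 0.20 and ran from -0.34 to 0.39. For the CCAAT match the order was the other way, with a median of 0.14 in the 33 genes with one, 23 of them above 0, and -0.19 in the 5 without, 2 of them above 0. Genes with and without either match lay on both sides of 0.

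**Figure D1:**
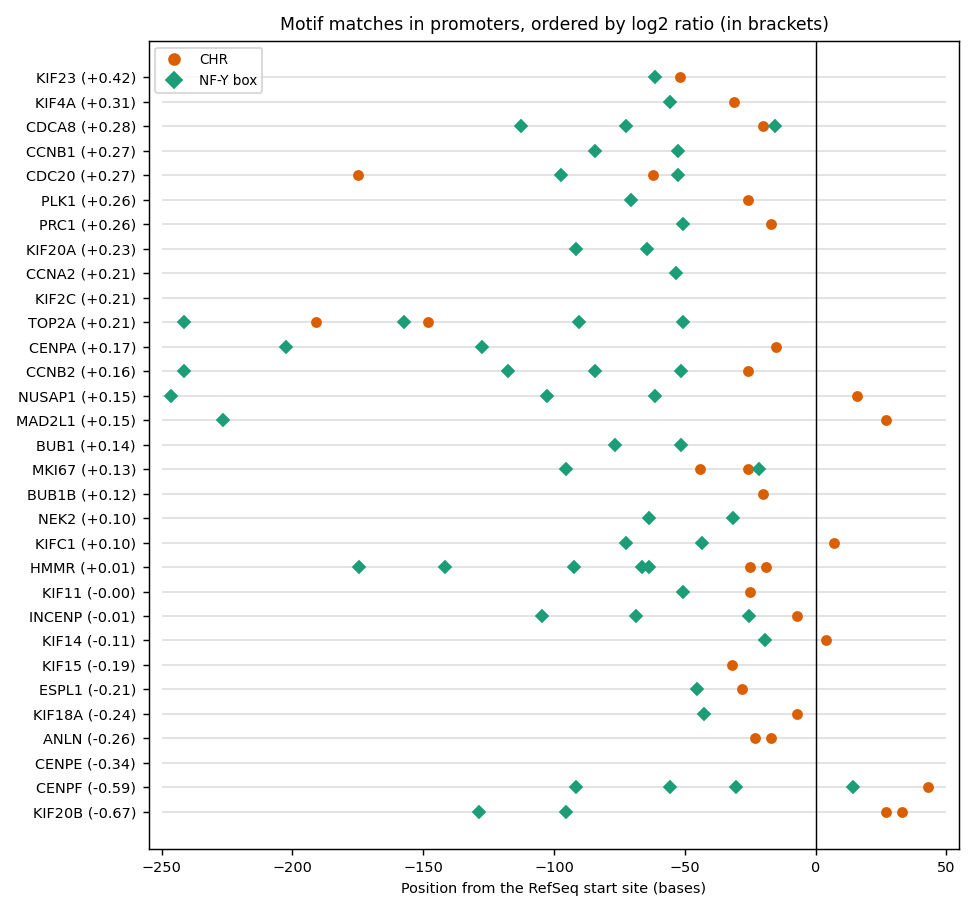
Positions of CHR (circles) and NF-Y box (diamonds, the CCAAT match) matches from the RefSeq start site in bases, for the 31 genes with 1 promoter window. Rows run from the highest log2 ratio among these 31 at the top to the lowest, and both kinds of match appear along the whole column, with gaps in KIF2C and CENPE. AURKA, UBE2C and TPX2 had no window and are not shown.

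Across the 46 genes the libraries were close, with more genes a little higher in the ASC library. No gene was 2-fold higher or lower, where 0.617% of all compared genes were 2-fold higher and 0.265% 2-fold lower. None was 1.5-fold higher and 2 were 1.5-fold lower, beside 2.38% and 1.81% of compared genes. At 1.2-fold, 9 genes (19.6%) were higher and 4 (8.70%) lower, where the share of compared genes was 12.6% in each direction. Above 0 were 32 of the 46 genes (69.6%), where 52% of compared genes were, and below 0 were 14, where 48% of compared genes were. The median log2 ratio was 0.14, against 0.01 over all compared genes, and the quartiles of the 46 were -0.01 and 0.25. Their RPKM summed to 1664 in ASC cells and 1509 in control cells, a ratio of 1.10. With a gene's highest transcript in place of its sum, 15 genes were 1.2-fold higher and 1 was 1.5-fold lower, and with a pseudocount of 3 none was 1.5-fold lower.

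**Figure D2:**
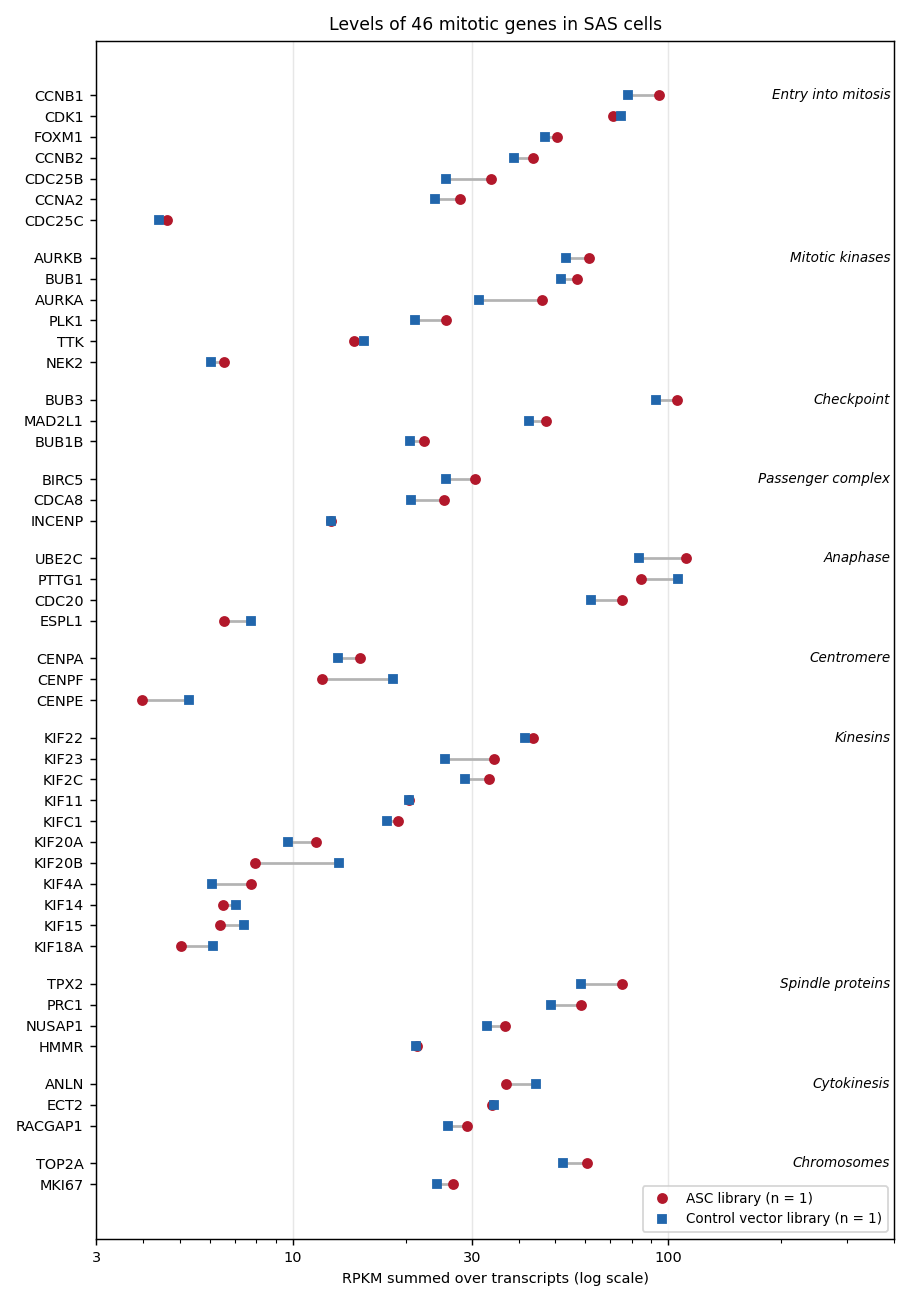
RPKM of each of the 46 genes (log axis) in the ASC library (circles) and the control vector library (squares), grouped by role, 1 library per group. Levels run from 3.95 RPKM for CENPE to 112 RPKM for UBE2C in the ASC library, and most pairs of points lie close together.

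All 46 genes were expressed in both libraries, with at least 284 estimated reads each. UBE2C, BUB3, CCNB1, PTTG1, CDC20 and TPX2 had the highest levels in the ASC library, from 112 down to 75.2 RPKM. In the control library the highest level was that of PTTG1, at 106 RPKM. At the low end stood CENPE, at 3.95 RPKM in ASC cells against 5.29 in control cells, and CDC25C, at 4.63 RPKM in ASC cells against 4.40 in control cells. At least 20 RPKM in both libraries was reached by 31 genes.

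Genes for entry into mitosis lay mostly above 0. CCNB1, the cyclin B1 gene, stood at 94.4 RPKM in ASC cells against 78.1 in control cells, with 5089.9 reads in ASC cells and 4166 in control cells. Its log2 ratio was 0.27, and that of the reads scaled to depth 0.28 (95% counting interval 0.22 to 0.34). CCNB2, a second B-type cyclin, stood at 43.5 RPKM in ASC cells against 38.9 in control cells, and CCNA2, the cyclin A2 gene, at 27.9 RPKM in ASC cells against 24.0 in control cells. Their partner kinase gene CDK1 lay on the other side of 0, at 71.3 RPKM in ASC cells against 74.9 in control cells (log2 ratio -0.07, read interval -0.16 to -0.04). The phosphatase gene CDC25B, whose product removes inhibitory phosphates from CDK1, stood at 33.7 RPKM in ASC cells against 25.5 in control cells (log2 ratio 0.39, interval 0.31 to 0.45). Its relative CDC25C was low and close, at 4.63 RPKM in ASC cells against 4.40 in control cells. FOXM1, a transcription factor that drives many of these genes, stood at 50.6 RPKM in ASC cells against 46.8 in control cells (log2 ratio 0.11). The group of 7 thus had 6 genes above 0, a median of 0.16 and 2 genes at least 1.2-fold higher, where 52% of compared genes were above 0 and 12.6% 1.2-fold higher.

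AURKA had the largest log2 ratio of the 46. Aurora A, its product, matures centrosomes and builds the spindle. The gene (ENSG00000087586.17) is on chromosome 20 (hg38, bases 56369389 to 56392337, minus strand) and stood at 46.1 RPKM in ASC cells against 31.4 in control cells, with 3407 reads in ASC cells and 2371 in control cells. The level was 1.47-fold higher (log2 ratio 0.54), above 97.1% of compared genes, and the read ratio was 0.52 (interval 0.44 to 0.59). Aurora B, the kinase of the passenger complex, had a smaller ratio, with AURKB at 61.4 RPKM in ASC cells against 53.4 in control cells. PLK1, the Polo-like kinase gene, stood at 25.5 RPKM in ASC cells against 21.2 in control cells (log2 ratio 0.26). The centrosome kinase gene NEK2 was low, at 6.56 RPKM in ASC cells against 6.06 in control cells, with a read interval of -0.17 to 0.23 that holds 0. TTK, which encodes the checkpoint kinase MPS1, was the one of the 6 kinase genes below 0, at 14.5 RPKM in ASC cells against 15.5 in control cells. With CDK1 and BUB1B added, 6 of 8 kinase-family genes were above 0, where 52% of compared genes were, with a median of 0.13.

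The spindle checkpoint genes differed little. BUB3, whose product brings BUB1 and BUBR1 to kinetochores, stood at 105 RPKM in ASC cells against 92.8 in control cells (log2 ratio 0.18). MAD2L1, which encodes the inhibitor MAD2, stood at 47.1 RPKM in ASC cells against 42.5 in control cells, and BUB1B, which encodes BUBR1, at 22.4 RPKM in ASC cells against 20.5 in control cells. BUB1, the checkpoint kinase gene, stood at 57.2 RPKM in ASC cells against 51.9 in control cells (log2 ratio 0.14). The 50 nearest compared genes of BUB1 had a median of -0.19, and subtraction of it gave 0.33. With TTK and CDC20, the target of the checkpoint, 5 of 6 genes lay above 0, where 52% of compared genes did, none by as much as 1.5-fold, and the median was 0.14. In the passenger complex, which corrects faulty attachments, CDCA8 (borealin) stood at 25.3 RPKM in ASC cells against 20.7 in control cells and BIRC5 (survivin) at 30.6 RPKM in ASC cells against 25.5 in control cells, with log2 ratios of 0.28 and 0.25. INCENP, the scaffold that binds Aurora B, stood at 12.6 RPKM in ASC cells against 12.7 in control cells and changed sign with the processing. With AURKB the median of the 4 subunits was 0.22.

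Genes of anaphase lay on both sides of 0. CDC20, an activator of the anaphase-promoting complex, stood at 75.3 RPKM in ASC cells against 62.3 in control cells. UBE2C, the ubiquitin-conjugating enzyme of that complex, stood at 112 RPKM in ASC cells against 83.5 in control cells (log2 ratio 0.41, interval 0.33 to 0.48). Securin, which the complex marks for destruction, had the opposite sign, with PTTG1 at 84.3 RPKM in ASC cells against 106 in control cells, 2276 reads in ASC cells and 2858 in control cells and a log2 ratio of -0.33 (interval -0.41 to -0.25). The neighbours of PTTG1 on chromosome 5 were lower as well, with a median of -0.17, and after subtraction of it PTTG1 came to -0.16. ESPL1, which encodes separase, the protease that securin inhibits, stood at 6.55 RPKM in ASC cells against 7.72 in control cells (log2 ratio -0.21). By reads ESPL1 was closer, at -0.07 with an interval of -0.18 to 0.04.

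**Figure D3:**
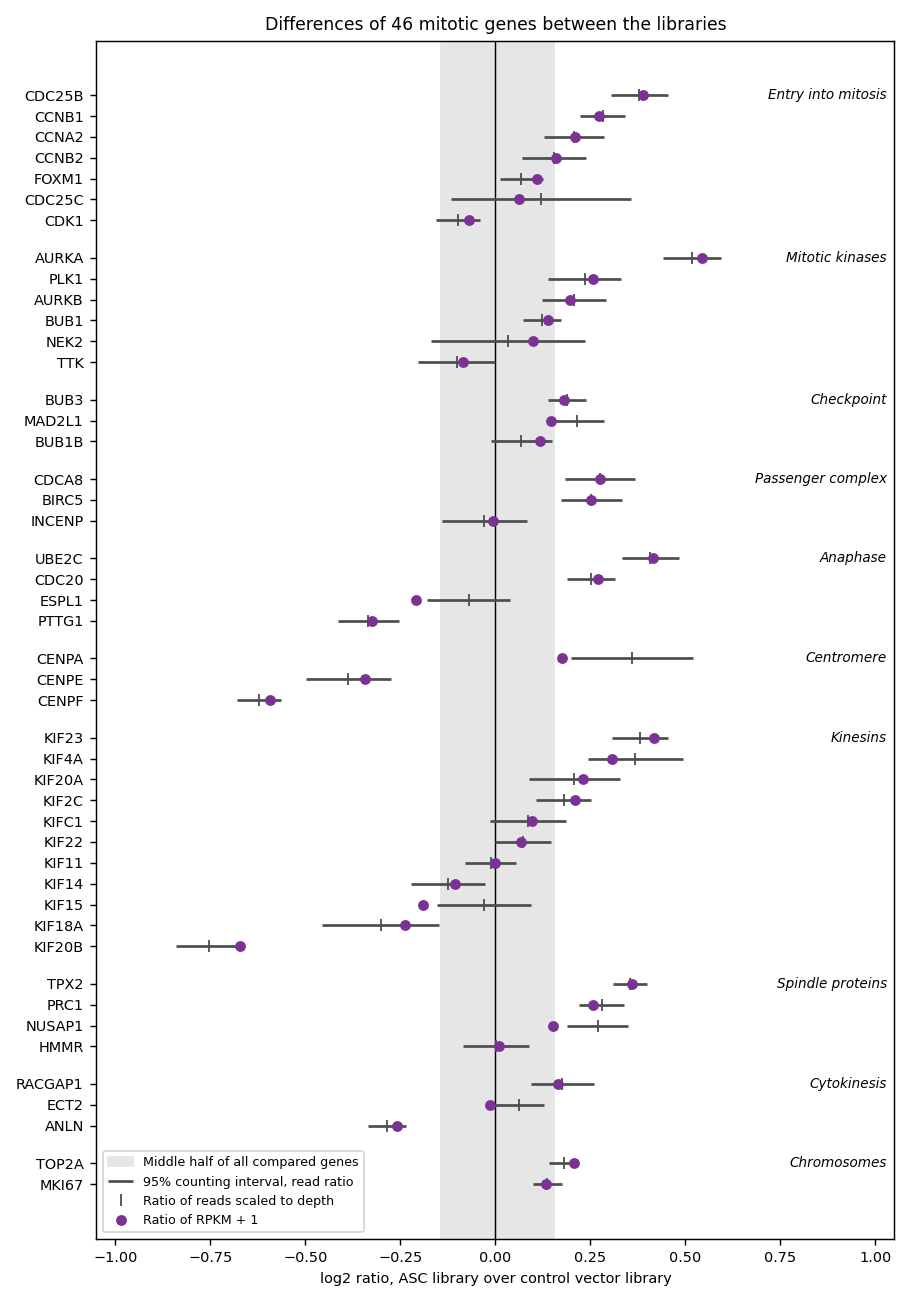
Log2 ratio of the ASC over the control vector library for the 46 genes by role. Circles give the ratio of RPKM + 1, ticks the ratio of reads scaled to depth with its 95% counting interval as a line, and the grey band the range between the quartiles of all compared genes. AURKA at 0.54 lies furthest right, and KIF20B at -0.67 and CENPF at -0.59 furthest left.

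Centromere genes held one of the 2 lowest ratios. CENPF, a very large coiled-coil protein of the outer kinetochore, stood at 11.9 RPKM in ASC cells against 18.5 in control cells, with 3956 reads in ASC cells and 6061 in control cells. It was 1.55-fold lower in the ASC library, with a log2 ratio of -0.59 (read interval -0.68 to -0.56), at percentile 1.77 of the compared genes. CENPF (ENSG00000117724.12) lies on the plus strand of chromosome 1, from 214603195 to 214664588. CENPE, a kinesin that carries chromosomes to the spindle equator, stood at 3.95 RPKM in ASC cells against 5.29 in control cells (log2 ratio -0.34, interval -0.50 to -0.28). CENPA, the histone H3 variant that marks the centromere, was above 0, at 15.1 RPKM in ASC cells against 13.2 in control cells (log2 ratio 0.17, and 0.38 after subtraction of its neighbours' median).

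The kinesins had the widest range of the role groups, from -0.67 to 0.42. They are also the largest group, with 11 genes, and a range tends to widen with the number of genes. The 3 centromere genes ran from -0.59 to 0.17 and the 4 anaphase genes from -0.33 to 0.41. KIF20B had the lowest ratio of the 46, at 7.94 RPKM in ASC cells against 13.2 in control cells, with 1782 reads in ASC cells and 2994 in control cells. It was 1.67-fold lower in the ASC library, with a log2 ratio of -0.67 (read ratio -0.75, interval -0.84 to -0.67). KIF20B (ENSG00000138182.14) encodes a kinesin of cytokinesis and lies on the plus strand of chromosome 10, from 89701610 to 89774939. Its relative KIF20A, which moves the passenger complex to the spindle midzone, had the opposite sign at 11.5 RPKM in ASC cells against 9.70 in control cells. KIF23, a kinesin subunit of centralspindlin, which bundles midzone microtubules, stood at 34.3 RPKM in ASC cells against 25.4 in control cells (log2 ratio 0.42, interval 0.31 to 0.46). RACGAP1, the other subunit, stood at 29.1 RPKM in ASC cells against 25.9 in control cells, a ratio of 0.17.

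The remaining kinesin genes lay between KIF20B and KIF23. KIF4A, a chromosome-bound kinesin that also works with PRC1 at the midzone, stood at 7.75 RPKM in ASC cells against 6.08 in control cells (log2 ratio 0.31). KIF2C, a microtubule depolymerase, stood at 33.3 RPKM in ASC cells against 28.7 in control cells. KIF11, the Eg5 motor that pushes spindle poles apart, stood at 20.4 RPKM in both, on 3533 reads in ASC cells and 3548 in control cells. KIF15, which can stand in for KIF11, had a log2 ratio of -0.19, but -0.03 by reads. KIF18A, which damps chromosome movements at the metaphase plate, stood at 5.04 RPKM in ASC cells against 6.12 in control cells (-0.24, and -0.39 after subtraction of its neighbours' median), and KIF14 at 6.50 RPKM in ASC cells against 7.08 in control cells (-0.11). KIF22 and KIFC1, the minus-end-directed motor, had log2 ratios of 0.07 and 0.10. Of the 11 genes 6 lay above 0, and with CENPE counted 6 of 12, where 52% of compared genes did. The median of the 12 was 0.03.

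All 4 genes of spindle proteins were above 0, where 52% of compared genes were. TPX2, which activates Aurora A on the spindle, stood at 75.2 RPKM in ASC cells against 58.4 in control cells (log2 ratio 0.36, interval 0.31 to 0.40). PRC1, which crosslinks antiparallel microtubules, stood at 58.4 RPKM in ASC cells against 48.7 in control cells, and NUSAP1 at 36.7 RPKM in ASC cells against 32.9 in control cells. HMMR, a spindle and centrosome protein, was level at 21.4 RPKM in ASC cells against 21.3 in control cells, and its sign changed with the processing. After subtraction of its neighbours' median HMMR came to 0.17. In cytokinesis ANLN, which encodes the contractile ring scaffold anillin, stood at 37.0 RPKM in ASC cells against 44.5 in control cells (log2 ratio -0.26). Its neighbours had a median of -0.13, and subtraction of it left -0.13. ECT2, which activates RhoA, stood at 33.9 RPKM in ASC cells against 34.3 in control cells, with a log2 ratio of -0.01, but 0.06 by reads. TOP2A, which untangles sister chromatids, stood at 60.7 RPKM in ASC cells against 52.5 in control cells. MKI67, the Ki-67 gene used to count cycling cells, stood at 26.7 RPKM in ASC cells against 24.3 in control cells. The log2 ratio was 0.21 for TOP2A and 0.13 for MKI67.

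Of the 5 highest ratios among the 46, 4 belonged to genes on chromosome 20. AURKA, UBE2C and TPX2 lie on its long arm, where the 236 compared genes from TPX2 onwards had a median of 0.20 and 83.1% were above 0. Subtraction of the median of the 50 nearest compared genes left 0.34 for AURKA, 0.23 for UBE2C and 0.18 for TPX2. CDC25B lies at the other end of the chromosome, where its neighbours had a median of -0.05, and it came to 0.44. The 42 genes outside chromosome 20 had a median of 0.13, and 66.7% of them were above 0, where 52% of all compared genes were. The part of the chromosome in these differences was not tested.

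The genes below 0 were mostly those with AT-rich or long transcripts. GC content and length were averaged over the transcripts of a gene, weighted by reads. Of the 15 genes with the lowest GC content, from 34.2% to 42%, 11 were below 0 (73.3%), with a median of -0.09. These 11 include 2 genes that were nearly level, KIF11 at -0.001 and ECT2 at -0.01, and ECT2 was above 0 by reads (0.06). Of 2516 compared genes in the same range 50.7% were below 0, and of 55 genes of the other lists described below 49.1%. Among the 16 genes of middle GC content 1 was below 0, PTTG1, and among the 15 of highest GC content 2, ESPL1 and INCENP. By length, 10 of the 15 genes with the longest transcripts, from 3543 to 12374 bases, were below 0, where 46.9% of compared genes of that length were. KIF11 and INCENP, at -0.001 and -0.006, are among these 10. Across the 46 genes Pearson's r of the log2 ratio was 0.44 with GC content and -0.43 with log2 length, and across all compared genes 0.03 with each. The relation with length was as large in the 41 kinetochore genes (r -0.44), where r with GC content was 0.07. In the 13 cohesin and 8 condensin genes r with GC content was 0.33 each, but in the 21 DNA replication genes it was -0.34. In the 24 further genes of the kinesin family compared, a list not restricted to mitosis, r was 0.04 with GC content and 0.22 with length. Over the 173 genes of all other lists r was 0.13 with GC content and -0.19 with length. These are correlations across genes of the same 2 libraries, and composition and length are themselves related (Spearman's rho -0.40 over the 46). Without KIF20B and CENPF r over the members was 0.37 with GC content and -0.28 with length, and without CENPE as well 0.32 with GC content and -0.20 with length. This split was looked at after the values of the genes had been seen.

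The composition can be read in the middle 90 bases of the coding sequence. They are printed for the 2 most AT-rich and the 2 most GC-rich of the 10 genes with the largest absolute log2 ratio, from the transcript with the most reads, 5′ to 3′ along the mRNA with G and C in capitals.
KIF20B: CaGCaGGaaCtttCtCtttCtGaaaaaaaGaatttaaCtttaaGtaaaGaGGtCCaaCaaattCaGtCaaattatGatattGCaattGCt
CENPE: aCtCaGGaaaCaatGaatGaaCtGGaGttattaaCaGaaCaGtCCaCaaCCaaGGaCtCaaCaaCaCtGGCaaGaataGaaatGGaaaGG
UBE2C: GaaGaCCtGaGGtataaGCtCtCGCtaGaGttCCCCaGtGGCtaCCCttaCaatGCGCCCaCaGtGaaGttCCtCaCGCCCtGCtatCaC
CDC25B: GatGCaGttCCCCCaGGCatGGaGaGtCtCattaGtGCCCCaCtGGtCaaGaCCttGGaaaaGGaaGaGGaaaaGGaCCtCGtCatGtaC

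The KIF20B stretch holds 27 G or C bases of 90 and lies in exon 20, at chr10:89737587-89737676 on the plus strand in hg38. That of CENPE holds 36 and lies in exon 28, at chr4:103147500-103147589 on the minus strand. The UBE2C stretch holds 49 and lies in exon 4, at chr20:45815547-45815636 on the plus strand, and that of CDC25B holds 47 and spans exons 9 and 10, within chr20:3801728-3801938 on the plus strand. Whole coding sequences had a GC content of 34.7% for KIF20B, 35.5% for CENPE, 55.3% for UBE2C and 60.3% for CDC25B. KIF20B and CENPE had log2 ratios of -0.67 and -0.34, and UBE2C and CDC25B 0.41 and 0.39. These genes were chosen by ratio and GC content, so their stretches illustrate the relation and do not test it. Of the 15 genes with the lowest GC content 4 were above 0, among them KIF23 (0.42) and TOP2A (0.21). KIF23 is also among the 10 genes with the largest absolute log2 ratio. UBE2C and CDC25B both lie on chromosome 20, where the neighbours of UBE2C had a median of 0.18 and those of CDC25B -0.05. Subtraction of a trend on GC content fitted over all compared genes left -0.58 for KIF20B and -0.60 for CENPF.

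**Figure D4:**
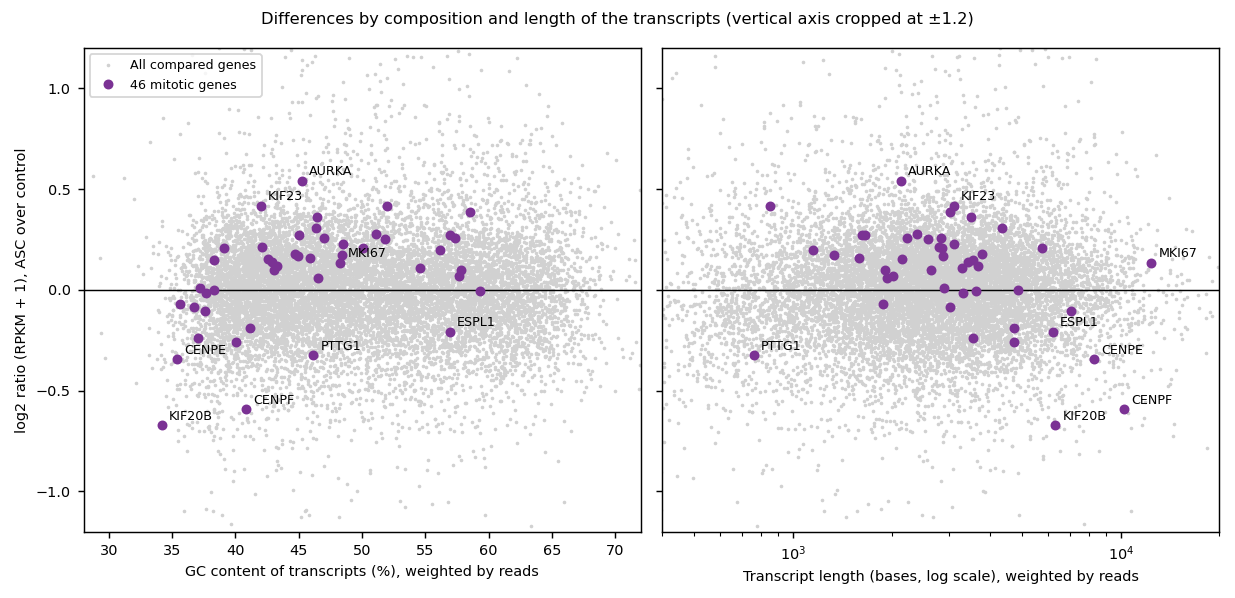
Log2 ratio of each gene against the GC content in percent (left) and the length in bases on a log axis (right) of its transcripts, for the 46 mitotic genes (large points) and all compared genes (small points, cropped at 1.2). KIF20B and CENPE sit at the AT-rich end and CENPF among the longest transcripts, while MKI67, the longest of the 46, lies at 0.13.

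Transcripts of a gene mostly kept their shares. The 46 genes had 370 listed transcripts, from 1 for KIF11 to 27 for RACGAP1, and in 44 genes the same transcript had the most reads in both libraries. In 3 genes a share differed by at least 10 percentage points. In ESPL1 the transcript ENST00000257934.8 held 44.7% of reads in ASC cells (95% Clopper-Pearson interval 42 to 47.4) against 65.9% in control cells (63.4 to 68.4). ENST00000552462.1, also coding and of similar length, held 26.5% in ASC cells against 11.7% in control cells. In CENPA the coding ENST00000335756.8 held 80.7% in ASC cells against 63.8% in control cells and stood at 11.3 RPKM in ASC cells against 6.91 in control cells, while the non-coding ENST00000472719.5 held 0.81% in ASC cells against 12.3% in control cells. The log2 ratio of CENPA was 0.17 from summed RPKM, 0.36 from reads (interval 0.20 to 0.52) and 0.64 from its highest transcript. In CDC25C ENST00000323760.10 held 76.4% in ASC cells against 62.8% in control cells, with 310 reads for the whole gene in ASC cells and 284 in control cells. Reads of overlapping transcripts are shared out by estimation, so these intervals leave out the error of that estimation.

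**Figure D5:**
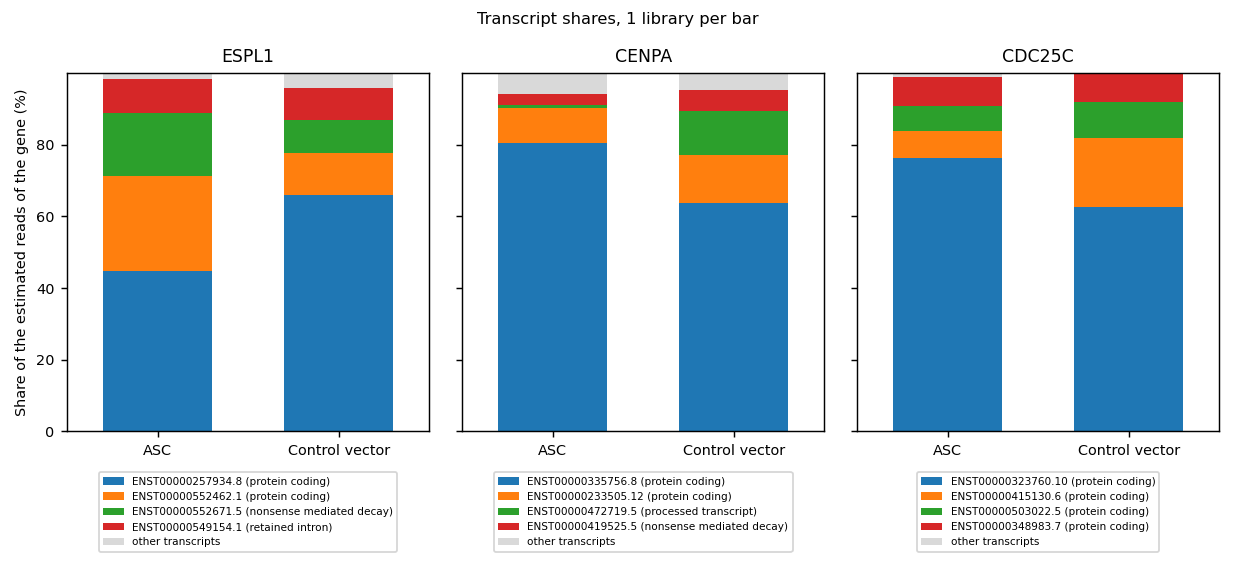
Share of the estimated reads of ESPL1, CENPA and CDC25C in percent held by each transcript with at least 5% in either library, for the ASC library (left bar) and the control vector library (right bar). The lowest block of ESPL1 is smaller in the ASC library, at 44.7% in ASC cells against 65.9% in control cells, and those of CENPA and CDC25C are larger.

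Reads of overlapping genes may enter some of these values, and their part was not tested. The library kit does not mark strand, and 9 of the 46 genes overlap another gene of at least 100 reads, namely CCNA2, CDC25C, FOXM1, CENPA, KIF4A, KIF15, KIF18A, KIF20A and ANLN. In some the other gene had more reads than the mitotic one. CDC25C, with 310 reads in ASC cells and 284 in control cells, overlaps FAM53C with 1651 in ASC cells and 1608 in control cells. KIF20A, with 1218 reads in ASC cells and 1050 in control cells, overlaps BRD8 with 1901 in ASC cells and 2132 in control cells, and CDC23 with 2129 in ASC cells and 2126 in control cells. These read counts are of whole genes, and KIF20A shares only 268 bases with BRD8 and 68 with CDC23. CENPA overlaps SLC35F6, with 1753 reads in ASC cells and 1591 in control cells, over 16943 bases on the same strand. KIF15 and TMEM42 also overlap on the same strand. CENPF and AURKA overlap none of that size, and neither does KIF20B. Near-identical copies were almost silent, with KIF4B and PTTG2 at 0 reads in ASC cells and 1 in control cells, and PTTG3P at 0 in ASC cells and 2 in control cells.

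Other gene lists, most of them of mitosis, whose members are not among the 46, are set beside them. Of all compared genes 52% were above 0, 12.6% were 1.2-fold higher and 12.6% were 1.2-fold lower. Of 41 further kinetochore genes 26 (median 0.05) were above 0, 6 were at least 1.2-fold higher and 4 lower. Among them CENPO, a gene of the inner kinetochore, stood at 8.73 RPKM in ASC cells against 11.6 in control cells. Of 17 anaphase-promoting complex genes and cofactors 9 were above 0, with a median of 0.01. Condensin and cohesin genes had medians of -0.08 and -0.05, with 3 of 8 and 4 of 13 above 0, and the cohesin subunit gene STAG1 stood at 9.93 RPKM in ASC cells against 13.9 in control cells. The 24 further genes of the kinesin family compared had a median of 0.08, with 16 above 0. That list is not restricted to mitosis, and it includes light chain genes such as KLC1. Among tubulin and spindle pole genes, 14 of 18 were above 0 with a median of 0.09. TUBB3, a beta-tubulin gene, stood at 17.6 RPKM in ASC cells against 11.3 in control cells (log2 ratio 0.60). ASPM, a gene of the spindle pole, stood at 5.79 RPKM in ASC cells against 8.38 in control cells (log2 ratio -0.47).

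Lists of cell cycle regulators had medians from -0.02 to 0.11, against 0.14 for the 46 genes. Single genes in them reached log2 ratios of 0.64 and -0.56, where the extremes of the 46 were 0.54 and -0.67. Of all compared genes 52% were above 0. Of 11 genes of the MuvB, E2F and pocket protein machinery 7 were above 0, with a median of 0.07. MYBL2, which joins MuvB to activate late cell cycle genes, stood at 32.8 RPKM in ASC cells against 24.7 in control cells. Of 12 G1 genes 9 were above 0, with a median of 0.11, led by the cyclin D genes CCND2 at 36.9 RPKM in ASC cells against 25.4 in control cells and CCND1 at 146 RPKM in ASC cells against 105 in control cells. Of 8 compared CDK inhibitor genes and inhibitory kinases 4 were above 0, with a median of -0.02. DNA replication genes had a median of 0.01, with 11 of 21 above 0. Among them TYMS, which makes thymidylate, stood at 43.8 RPKM in ASC cells against 27.8 in control cells (log2 ratio 0.64), and CDT1, which licenses replication origins, at 22.9 RPKM in ASC cells against 34.4 in control cells (log2 ratio -0.56). None of the compared genes in these 10 lists, those of at least 1 RPKM in either library, was 2-fold higher or lower. Among all compared genes 0.617% were 2-fold higher and 0.265% 2-fold lower. The difference between these lists and the 46 genes was not tested, since there is 1 library per group.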

How the data were processed

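RNA was extracted with TRIzol, and poly(A) RNA libraries were made with a TruSeq kit, per the labels' protocols. The authors deposited 1 table of 134092 transcripts with estimated counts of reads and RPKM per library, per the file headers. Genome build hg38 is named in the submitters' processing notes. Which aligner, quantifier and annotation were used is not given by the sources used here. The deposited RPKM are reads over transcript length and a library constant, of which the listed reads are 88.1% in the ASC and 87.4% in the control library. Starts, and stops minus 1, matched GENCODE release 29 in all 131985 transcripts of the same version.

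Groups came from the genotype label (control) and the vector label (ASC), since the genotype label of the ASC sample names SAS, the cell line, as overexpressed. RPKM were summed per gene, 284 of 285 date-like gene names were restored, and genes reaching 1 RPKM in one library or both entered as log2(RPKM + 1) ratios. Genes past 2-fold, 1.5-fold and 1.2-fold were counted. Having 1 library on each side, the design allows no test and no p-value. Intervals are exact Clopper-Pearson intervals on rounded estimated counts scaled to listed reads. They cover counting error only. PCR copies of a molecule are counted as separate reads, so the intervals may be too narrow even for that error. The log2 ratio and the counting interval were checked on gene counts simulated with counting error only. The other steps were not checked in this way.

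The members and lists were chosen with earlier results of these data known. Values are given for the highest, largest-ratio and smallest-ratio gene of each role group, the 10 largest absolute ratios and chromosome 20, with other members added to complete each group. Other lists name up to 2 genes, and 1 result is not reported here. Alternatives were pseudocounts of 0.1 and 3, no filter and 5 RPKM, centring, TMM with edgeR 4.0.16 (R 4.3.3), CPM, the highest transcript and subtraction of 50 neighbours. Removal of lowess trends on GC content and length was chosen after seeing the data. Python 3.11.15 with pandas 2.3.3, scipy 1.17.1 and statsmodels 0.14.6 was used.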

Additional observations from a re-analysis of the deposited data

How the results depend on the processing

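The median log2 ratio of the 46 genes lay between 0.12 and 0.18 under the 11 alternatives, against 0.14 as reported. No gene passed 2-fold under any of them, and between 31 and 35 genes were above 0. The 2 genes that were 1.5-fold lower, KIF20B and CENPF, were 0 with a pseudocount of 3, 1 with the highest transcript, 1 with the GC trend removed and 1 with the length trend removed. When a gene was represented by its highest transcript, 2 genes were 1.5-fold higher, AURKA and CENPA, and 15 were 1.2-fold higher in place of 9. Across the alternatives between 6 and 15 genes were 1.2-fold higher and between 3 and 6 lower, against 9 and 4. The median of the cytokinesis genes was 0.060 with CPM and -0.14 with the highest transcript, against -0.01, and that of the spindle proteins was 0.33 with the highest transcript, against 0.20. The cause of these shifts was not tested, beyond the transcript shares given above. Of 286 values of 26 named genes, 6 changed sign, in HMMR and INCENP. Genes outside the 26 are not in that count. Of these, ECT2 had -0.01 by RPKM and 0.06 by reads. After subtraction of the neighbours' median KIF11 went from -0.001 to 0.064 and CDC25C from 0.061 to -0.005. No paired analysis was possible because each group has 1 library, and for the same reason no library could be left out. Counting error alone gives a median half-width of 0.08 on the log2 scale.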
